A study of Mus musculus with 16 samples.

Results

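The transcriptional effects of picoxystrobin and trifloxystrobin, a pair of strobilurin fungicides, were compared at 30, 100 and 300 nM, with 3 libraries for each compound. These are 6 of the 16 RNA-seq libraries of the series, selected by the compound and the molarity in their titles and matched by concentration. The pair of libraries at 1000 nM was kept apart as a check, and the libraries exposed to the solvent alone were not used. In the experiment, C17.2α cells, a mouse neural cell line from cerebellum stably transfected to overexpress the thyroid hormone receptor TRα1, received a strobilurin dissolved in DMSO for 24 h. All libraries shared the receptor transgene, a serum depleted of hormones and the absence of T3, the active thyroid hormone. Each concentration of a compound was a single library of this 1 line, so concentrations served as replicates, and a response to concentration is part of the spread within a compound. The study's text gives 1 experiment as the source of the libraries, so p-values measure only the spread between these libraries.

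Strobilurins bind complex III of the respiratory chain (the cytochrome bc1 complex), where they block the transfer of electrons from ubiquinol to cytochrome c in fungal mitochondria. Animal mitochondria hold the same complex. Picoxystrobin carries a methoxyacrylate group and trifloxystrobin a methoxyimino acetate group, and their side chains also differ (a pyridine ring against a phenyl ring joined by an oxime ether). Cells under respiratory or amino acid stress commonly raise targets of the transcription factor Atf4, a program known as the integrated stress response. The question of the experiment was whether strobilurins related to pyraclostrobin change transcription in these neural cells in a similar way. Here it was asked which genes differed between these compounds when the concentration was the same, and 1 pair of compounds was therefore compared.

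The total count was between 13044534 and 18188099 in the 8 libraries, and no pair of them held identical counts. Of the markers of neural progenitors, Nes (140 to 179 CPM over the 6 libraries), Vim and Sox2 were expressed, whereas Sox1 was at 0 and Pax6 did not exceed 0.11 CPM. CPM are counts relative to the library total, adjusted by TMM. The sum of 8 fibroblast or mesenchymal markers was between 6472 and 7814 CPM. Neuronal Rbfox3 and astrocytic Aqp4 were at 0, but these genes did not stand for their lists. Of 10 neuronal markers 2 were over 10 CPM and 5 under 1 CPM in every library, and of 7 astrocytic markers 1 and 4. Neuronal Map2 was at 112 to 156 CPM and astrocytic S100b at 11.1 to 20.4 CPM over the 6 libraries. The sum of 5 endothelial markers did not exceed 0.385 CPM. The range of the fibroblast or mesenchymal sum overlapped between the compounds. The endothelial sum was between 0.314 and 0.385 CPM for picoxystrobin and between 0.183 and 0.273 CPM for trifloxystrobin. Such endothelial sums are close to 0, rest on few reads and are not read as a difference between the compounds. The oligodendrocyte factor Sox10 was at 150 to 167 CPM with picoxystrobin and at 186 to 238 CPM with trifloxystrobin, and the part of such markers in the results was not tested. The labelled neural identity was therefore carried by part of its markers. Reads on mitochondrially encoded genes made up 10.6 to 12.7% of the picoxystrobin libraries at 30 to 300 nM and 9.38 to 10.1% of the trifloxystrobin libraries.

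Part of the expressed genes differed between the compounds, and none by more than 2-fold in the fit. Among 9697 genes with an average over 10 CPM, 283 were higher and 373 were lower with picoxystrobin than with trifloxystrobin at an adjusted p under 0.05 (edgeR's quasi-likelihood test with concentration as block, p adjusted by the Benjamini-Hochberg method). These calls amount to 6.76% of the genes tested, with 2.92% higher and 3.85% lower. The lowest adjusted p was 0.0428, so the calls sat close to the threshold, and 31.7% of all genes had an unadjusted p under 0.05. The largest fitted difference was 0.88 on the log2 scale, and the median was 0.43 for the genes called higher and -0.44 for those called lower. In single pairs, 21, 22, 21 and 15 genes differed by more than 2-fold at 30, 100, 300 and 1000 nM (0.217%, 0.227%, 0.217% and 0.155% of the genes). The 3 libraries of each compound did not overlap in 281 of the 283 genes called higher and in 373 of the 373 called lower, against 20.7% (picoxystrobin above) and 21.4% (picoxystrobin below) of all genes. Since the calls were made on the same libraries, this lack of overlap follows largely from the selection and adds no support. For 9674 of the 9697 genes, the 95% interval of the difference lay entirely between -1 and 1 on the log2 scale, with a median half-width of 0.23. All calls depended on the pair at 300 nM, since 0 genes were called without the picoxystrobin library at 300 nM (934 at an unadjusted p under 0.05) or without the trifloxystrobin library at 300 nM (916). With concentration as block, a library without its partner does not inform the difference. Leaving out either library of a pair therefore drops that pair, and the 2 settings are not separate checks. Adding the pair at 1000 nM also left 0 genes called by edgeR's test (1113 at an unadjusted p under 0.05), and without any 1 of the other 4 libraries between 1589 and 2129 genes were called. DESeq2 on the 3 pairs called 293 higher and 280 lower.

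The genes called higher were poor in G and C and the genes called lower were rich in them. Their longest transcripts had a median GC content of 41.9% and 57.6%, against 48.8% over all genes tested. Across 9663 genes, the log2 ratio of picoxystrobin over trifloxystrobin followed GC content with Pearson's r = -0.445 at 30 nM, -0.506 at 100 nM and -0.713 at 300 nM. At 1000 nM, r was 0.281, of the opposite sign. These are descriptions across genes, which are not independent replicates and share the same libraries. The length of the transcript had little relation to the ratio (r between -0.11 and -0.04 over the 4 pairs). When genes were divided in 5 groups of similar size by GC content, the median log2 difference went from 0.21 in the lowest group to -0.26 in the highest. The lowest group held 185 of the genes called higher and 1 called lower, and the highest held 3 and 303.

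**Figure D1:**
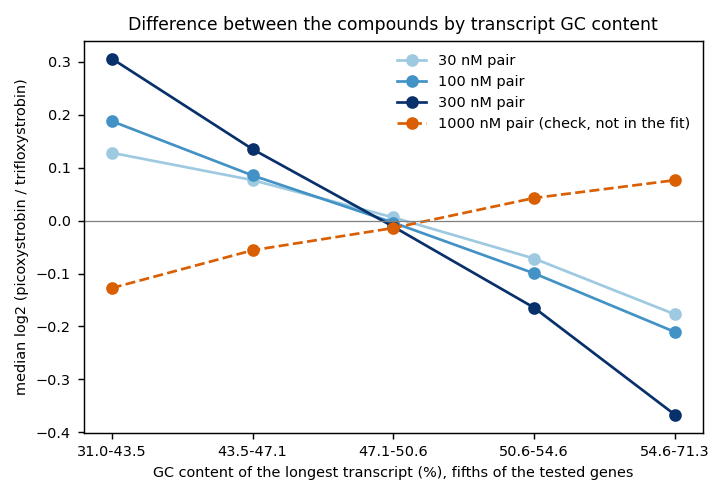
Median log2 ratio of picoxystrobin over trifloxystrobin (y axis) in 5 groups of the tested genes ordered by the GC content of the longest transcript (x axis, %), 1 line per matched pair of libraries. The 3 pairs of the comparison go down from low to high GC content, most at 300 nM (0.31 to -0.37), and the dashed 1000 nM pair goes up (-0.13 to 0.08).

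The compounds did not contribute alike to this relation. Within picoxystrobin, the ratio of the 300 over the 30 nM library followed GC content with r = -0.591, and the ratio of the 1000 over the 300 nM library with r = 0.697. Within trifloxystrobin, the 3 ratios among the libraries at 30, 100 and 300 nM had r between -0.03 and 0.01, and the ratio of 1000 over 300 nM had r = 0.308. The trend of a library with GC content thus moved with concentration for picoxystrobin, and less for trifloxystrobin. The origin of this trend was not tested.

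The 4 stretches of coding sequence below show the composition at both ends of this range. They are 60 bases from the middle of the longest coding exon of the 2 genes with the lowest coding GC content among the 10 highest named below, and of the 2 with the highest coding GC content among the 10 lowest. The bases are given 5′ to 3′ on the coding strand, from GENCODE M21 (GRCm38), with G and C in capitals. Zfp119b encodes a zinc finger protein (chr17:55939245-55939304, minus strand), Kif18a a kinesin of the mitotic spindle (chr2:109333432-109333491, plus strand), Gm13889 a small predicted protein (chr2:93956729-93956788, minus strand) and Mbd6 a methyl-CpG binding domain protein (chr10:127286022-127286081, minus strand).
Zfp119b: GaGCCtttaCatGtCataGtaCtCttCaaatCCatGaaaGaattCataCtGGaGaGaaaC
Kif18a: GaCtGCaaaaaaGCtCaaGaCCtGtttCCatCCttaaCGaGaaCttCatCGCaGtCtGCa
Gm13889: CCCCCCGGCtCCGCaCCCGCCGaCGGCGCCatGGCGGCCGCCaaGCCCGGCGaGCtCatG
Mbd6: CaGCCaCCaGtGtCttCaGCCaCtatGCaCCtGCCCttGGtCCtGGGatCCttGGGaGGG
G and C made up 22 and 27 of the 60 bases in Zfp119b and Kif18a, and 49 and 37 in Gm13889 and Mbd6. Over the whole coding sequence they made up 37.7% and 39.4% in the former pair, and 72.5% and 64.5% in the latter.

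When each library was corrected for its trend with GC content, 0 of 9663 genes were called by edgeR's quasi-likelihood test (0%, lowest adjusted p 0.163). At an unadjusted p under 0.05 the corrected test retained 15.6% of the genes, 820 higher and 685 lower. DESeq2 with the same correction called 41 genes higher and 15 lower. By edgeR, the count depended on the libraries at 100 nM, with 226 genes higher and 157 lower without that of picoxystrobin and 222 and 153 without that of trifloxystrobin, and without the picoxystrobin library at 30 nM 11 were higher and 0 lower. After the correction, the median difference was 0.26 for the genes called higher before it and -0.21 for those called lower. Of the called genes with a GC value, 280 of 280 and 371 of 371 kept their sign, against 6999 of 9663 over all genes. The called genes had been picked for their differences in the same counts, so this is not a separate check. The correction takes away a technical trend as well as a response that follows GC content, and these cannot be told apart here.

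**Figure D2:**
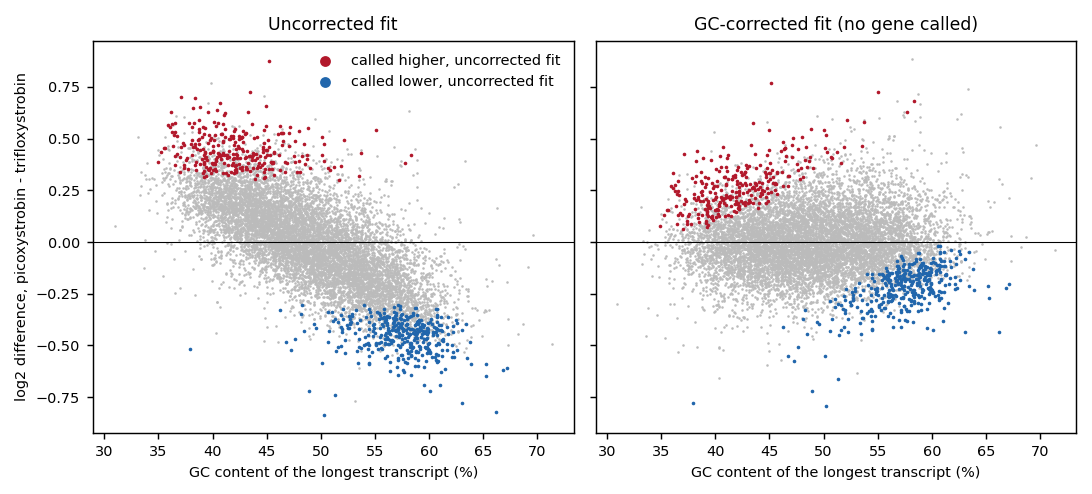
Fitted log2 difference, picoxystrobin minus trifloxystrobin (y axis), against GC content of the longest transcript (x axis, %), 1 point per gene, without the correction (left) and with it (right). Red and blue points are the genes called higher and lower in the uncorrected fit, which lie at the low and the high end of GC content on the left and on both sides of 0 on the right, where no gene was called.

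The pair at 1000 nM, which the fit did not use, did not repeat the direction of the calls. Of the 283 genes called higher, 64 (22.6%) were higher with picoxystrobin at 1000 nM, against 47.2% of all genes tested. Of the 373 genes called lower, 265 (71.0%) were higher. After the correction for GC content, 104 of 280 (37.1%) and 186 of 371 (50.1%) were higher, against 4543 of 9663 over all genes. With 1 library for each compound, this pair has no replicate check.

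The largest positive difference was in Kctd12 and the others were between 0.65 and 0.82 on the log2 scale. Kctd12, an auxiliary subunit of GABA-B receptors, had 13.0, 13.8 and 20.4 CPM with picoxystrobin at 30, 100 and 300 nM and 8.10, 9.06 and 8.15 CPM with trifloxystrobin. Its log2 difference was 0.88 (SE 0.16) and 0.77 (SE 0.15) after the correction for GC content. The groups did not overlap, but at 1000 nM the order was inverted, with 4.45 against 6.24 CPM. Rpl22l1, a paralog of the ribosomal protein Rpl22, had 69.4, 88.2 and 119.6 CPM with picoxystrobin and 62.3, 45 and 58.2 CPM with trifloxystrobin. Its log2 difference was 0.73 (SE 0.15), and 0.58 (SE 0.15) after the correction. With picoxystrobin it was higher at each higher concentration up to 300 nM, and at 1000 nM the values were 33.6 and 47.5 CPM. The small GTPase Rap1a had 17.5, 19.7 and 30.6 CPM with picoxystrobin and 13.1, 14.7 and 14.4 CPM with trifloxystrobin (log2 difference 0.65, SE 0.15, and 0.40, SE 0.13, after the correction). Kif18a had 32.2, 26.8 and 35.7 CPM against 19, 22.3 and 18.7 CPM (0.65, SE 0.14, and 0.39, SE 0.13). Its values at 1000 nM, 21.6 and 21.0 CPM, were nearly equal. The noncoding Gt(ROSA)26Sor was even across concentrations within each compound, with 28.4, 29.3 and 29.9 CPM against 19.4, 18.6 and 16.0 CPM, and lies antisense to Thumpd3. The adjusted p of these 5 genes was between 0.0428 and 0.0446 in edgeR's quasi-likelihood test (Benjamini-Hochberg).

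Among the other genes of the 10 highest, Ctgf, a matricellular protein and target of the YAP pathway, had 11.8, 13.7 and 19.2 CPM with picoxystrobin and 10.6, 5.08 and 10.5 CPM with trifloxystrobin (log2 difference 0.82, SE 0.20). It was not found under this symbol in the annotation and has no value after the correction. At 30 nM the compounds differed little, and the trifloxystrobin library at 100 nM was the lowest of the 6. Zfp119b (0.70), Gm7072 (0.68), the nucleosome binding protein Hmgn5 (0.67) and the processed pseudogene Gm6104 (0.66) make up the 10. In each of these 4 genes the picoxystrobin libraries were all above the trifloxystrobin libraries, between 10.9 and 32.0 CPM against between 8.02 and 16.6 CPM. Gm6104 lies within Tcea1 on the opposite strand, and reads of a processed pseudogene can come from its parent gene.

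The largest negative differences were in Cdc42ep2, Gm13889 and Mbd6. Mbd6 had 49.5, 43.3 and 37.9 CPM with picoxystrobin and 83.2, 68.7 and 71.8 CPM with trifloxystrobin. Its log2 difference was -0.78 (SE 0.09) and -0.43 (SE 0.07) after the correction, and at 1000 nM the compounds were nearly equal (73.6 and 72.1 CPM). Cdc42ep2, an effector of the GTPase Cdc42, had 19.1, 19.5 and 17.7 CPM against 40.8, 23.8 and 38.6 CPM. Its difference was -0.84 (SE 0.16) and changed little with the correction (-0.79, SE 0.17), its GC content being 50.2%. It kept this order at 1000 nM, with 24.8 against 38.5 CPM. Notch1, a receptor that maintains neural progenitors, had 27.3, 32.0 and 21.1 CPM with picoxystrobin and 44.8, 35.8 and 44.6 CPM with trifloxystrobin (-0.64, SE 0.16, and -0.41, SE 0.14). The groups did not overlap, but the libraries at 100 nM differed little, and at 1000 nM picoxystrobin was the higher, with 57 against 50.7 CPM. Ptms, a small acidic nuclear protein, had 67.5, 65.9 and 50.9 CPM against 109, 82.1 and 97.5 CPM (-0.65, SE 0.12), which came down to -0.27 (SE 0.09) after the correction. At 1000 nM Ptms was also inverted, with 139 against 107 CPM. These 4 genes had an adjusted p between 0.0428 and 0.0467 in edgeR's quasi-likelihood test (Benjamini-Hochberg).

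The other genes of the 10 lowest were Gm13889 (log2 difference -0.82), Kctd21 (-0.74), the chromatin remodelling subunit Ino80e (-0.72), Adamtsl4 (-0.72), the secretory granule protein Ptprn (-0.69) and the corepressor Mier2 (-0.69). Kctd21, a substrate adaptor of a ubiquitin ligase, was steady in each compound, with 8.19, 8.13 and 9.43 CPM against 13.7, 14.0 and 15.2 CPM. It kept its order at 1000 nM (11.7 against 16.0 CPM), where Ino80e was nearly equal (19.9 against 20.1 CPM). In Gm13889 the inversion was large, from 7.99, 7.75 and 6.54 CPM against 12.6, 12.2 and 14.7 CPM at the lower concentrations to 23.0 against 15.9 CPM at 1000 nM. Ino80e overlaps Doc2a and Hirip3 on the opposite strand, and whether reads were counted by strand is not given in the sources used here.

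**Figure D3:**
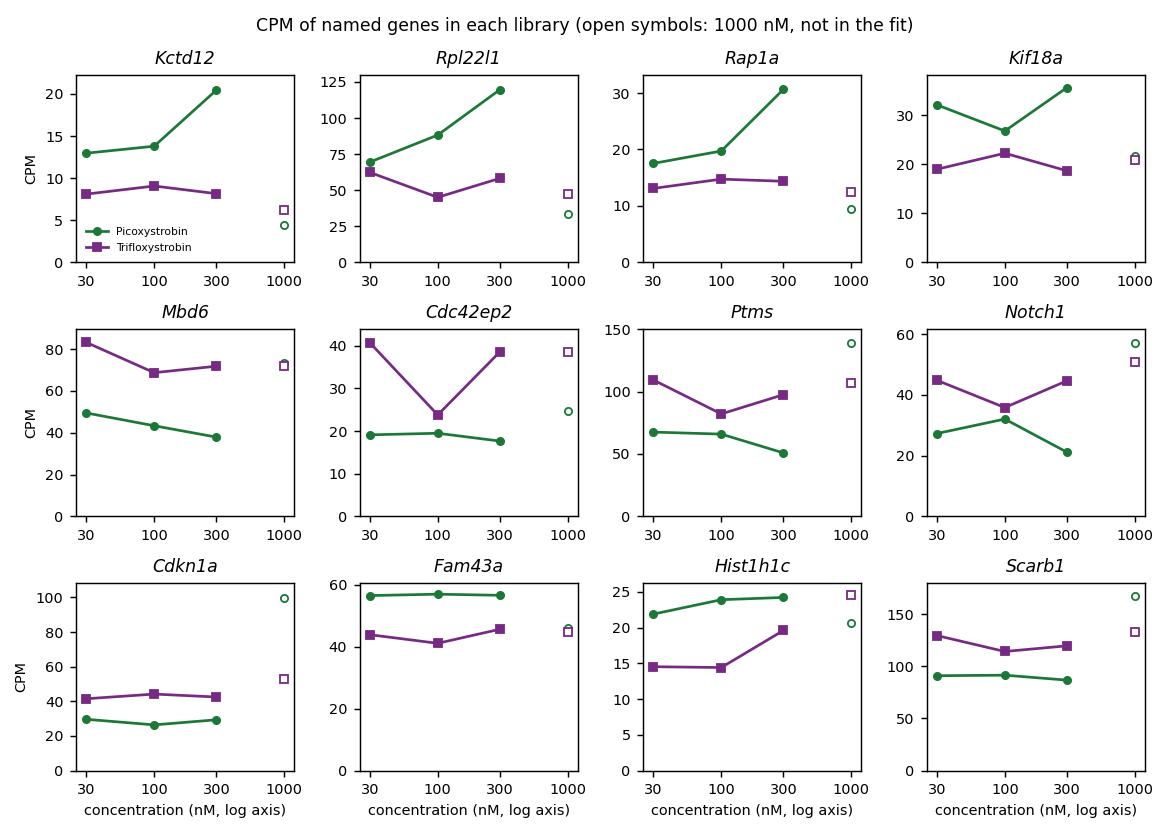
CPM in each library (y axis, from 0) against concentration (x axis, nM, log scale) for 12 genes named in the text, with circles for picoxystrobin and squares for trifloxystrobin. Open symbols are the libraries at 1000 nM, which were not in the fit, and the order of the compounds is inverted there for Kctd12, Rpl22l1, Rap1a, Ptms, Notch1, Cdkn1a, Hist1h1c and Scarb1, and by little for Mbd6.

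Since 0 genes were called after the correction for GC content, the 5 genes of each sign with the lowest p were named. Fam43a had 56.5, 57 and 56.6 CPM with picoxystrobin and 43.9, 41.1 and 45.6 CPM with trifloxystrobin. It is GC-rich (57.7%), and the correction enlarged its log2 difference from 0.38 (SE 0.09) to 0.63 (SE 0.08). Hist1h1c, a linker histone, had 21.9, 23.9 and 24.2 CPM against 14.5, 14.4 and 19.6 CPM, a difference of 0.54 (SE 0.12) before and 0.72 (SE 0.11) after the correction. The processed pseudogene Gm10698 (0.59 after the correction), Ndufb1-ps (0.49) and the ribosomal protein gene Rpl26 (0.51) complete the higher genes. Scarb1, a receptor for high-density lipoprotein, had 91.0, 91.5 and 86.7 CPM against 129.5, 114 and 119.6 CPM, and its difference was -0.43 (SE 0.08) before and -0.45 (SE 0.07) after the correction. The imprinted antisense RNA Kcnq1ot1 (-0.66), Kctd21 (-0.66), Mbd6 (-0.43) and the ethanolamine kinase Etnk1 (-0.41) complete the lower genes. The adjusted p of these 10 genes was 0.163 (quasi-likelihood test of edgeR, Benjamini-Hochberg). At 1000 nM, Fam43a (46.2 and 44.6 CPM) was nearly equal, whereas Scarb1 (167 and 133 CPM) was inverted.

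Genes of complex III, the target of strobilurins, had differences of both signs. Of the 14 members tested 1 was called, against 6.76% of all genes, and their median log2 difference was -0.05, or 0.02 after the correction for GC content. The member called was Uqcrb, a small subunit also known as the ubiquinone-binding protein, with 48.3, 57.4 and 66.1 CPM with picoxystrobin and 39.9, 47.1 and 43.3 CPM with trifloxystrobin (0.39, SE 0.10, adjusted p 0.0484 in edgeR's quasi-likelihood test (Benjamini-Hochberg)). After the correction its difference was 0.17 with a 95% interval from -0.01 to 0.35. The mitochondrially encoded cytochrome b, mt-Cytb, which holds the strobilurin binding site, had 18814, 17662 and 21256 CPM against 13396, 16259.6 and 15376 CPM. The groups did not overlap, but the difference of 0.36 (95% interval from 0.12 to 0.60) did not pass the threshold (adjusted p 0.0663 by edgeR's test) and was 0.12 (-0.13 to 0.36) after the correction. For the other 12 members the difference was between -0.26 (Uqcr10) and 0.19 (Ttc19). The iron-sulfur protein gene Uqcrfs1 differed by 0.14 (95% interval from -0.03 to 0.31) and the core subunit gene Uqcrc2 by 0.09 (-0.11 to 0.28). For Cyc1, which encodes cytochrome c1, the values were -0.13 (-0.31 to 0.05) before and 0.19 (0.02 to 0.36) after the correction, so its sign depended on the correction.

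Other respiratory genes gave a few calls. Of 35 nuclear genes with symbols of complex I subunits, 4 were called higher with picoxystrobin and 0 lower. Of 27 genes listed for complexes IV and V, 4 were called higher and 1 lower, against 2.92% higher and 3.85% lower of all genes. The genes called in the complex I list were Ndufa4 (0.40), Ndufa6 (0.43), Ndufb3 (0.45) and Ndufs4 (0.35), the last 2 named after their values were seen. Ndufa4 was placed there by its symbol, although its protein is counted in complex IV. Ndufa6 had 264, 263 and 331 CPM with picoxystrobin and 219, 202 and 212 CPM with trifloxystrobin, and its difference was 0.58 (SE 0.10) after the correction. Cox7a2 had 230.3, 223 and 252 CPM against 188, 184 and 173 CPM (0.37, SE 0.09, and 0.46, SE 0.08). Cox6c (0.38, and 0.32 after the correction) was also called higher, whereas the ATP synthase subunit gene Atp5d (-0.46, and -0.18) was called lower. The medians of both lists were small, -0.01 and 0.05 on the log2 scale, and 0.08 and 0.12 after the correction.

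Among 10 mitochondrially encoded transcripts tested, 2 were called, both higher with picoxystrobin, against 2.92% of all genes, and the median log2 difference was 0.31. By pair the median was 0.37 at 30 nM, 0.09 at 100 nM, 0.50 at 300 nM and -0.40 at 1000 nM, and 10 of 10 were higher at 300 nM against 2 of 10 at 1000 nM. The complex I subunit gene mt-Nd5 had 6785, 6490.0 and 9016 CPM with picoxystrobin and 5078, 5671 and 5318 CPM with trifloxystrobin (0.46, SE 0.12). It was at 2919 and 4902 CPM at 1000 nM. The other gene called was mt-Nd4 (0.45, SE 0.12). After the correction for GC content the differences were 0.18 for mt-Nd5 and 0.16 for mt-Nd4. The 10 transcripts are poor in G and C (median 36.5%). The correction brought their median difference to 0.03 (0.24, -0.17 and 0.08 at 30, 100 and 300 nM, and -0.28 at 1000 nM). The ribosomal RNAs mt-Rnr1 and mt-Rnr2 had differences of -0.01 and -0.16 before the correction. The share of mitochondrial reads in the libraries at 1000 nM was 7.93% with picoxystrobin and 9.44% with trifloxystrobin. For the 71 mitochondrial ribosomal protein genes the median was 0.00, with 0 called higher and 1 lower (Mrpl4, -0.55).

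Cytosolic ribosomal protein genes had 7 members called higher and 1 lower among 65, against 2.92% and 3.85% of all genes, with a median log2 difference of 0.12. The median was 0.15 with the correction for GC content, 0.064 with GC content and transcript length, and 0.054 with the 1000 nM pair added to the fit. After the correction for GC content, 26 of the 65 had an unadjusted p under 0.05 in the higher direction and 1 in the lower, against 8.49% and 7.09% of all genes. Rps3a1 had 200.3, 206 and 246 CPM with picoxystrobin and 145, 161 and 142 CPM with trifloxystrobin (0.54, SE 0.10, and 0.51, SE 0.09, after the correction). The groups were well apart, but at 1000 nM the values were 124 and 145 CPM. Rps3a2 (0.49), a near-identical copy of Rps3a1, and Rps3a3 (0.53), another copy by its symbol, were also called, and all may share reads. The others called higher were Rpl23 (0.53), Rpl39 (0.40) and the paralogs Rpl22l1 and Rps27l (0.53), which entered the list by their symbols. The 7 calls are therefore not 7 separate ribosomal protein genes. Rps3a3, Rpl23, Rpl39 and Rps27l were named after their values were seen. Rpsa, which encodes a protein of the small subunit, was the gene called lower, with 49.9, 45.1 and 41.9 CPM against 66.1, 64.3 and 60.4 CPM (-0.48, SE 0.09). At 1000 nM the median of the list was -0.14, with 46 of 65 members lower. Processed pseudogenes, many of which are copies of ribosomal protein genes, had 37 of 543 (6.81%) called higher, against 2.92% of all genes, and 3 lower. Their median log2 difference was 0.11, 0.10 after the correction and -0.01 at 1000 nM, with a median GC content of 48.9%, near that of all genes. Counts of these genes are uncertain where they share reads with their parents.

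**Figure D4:**
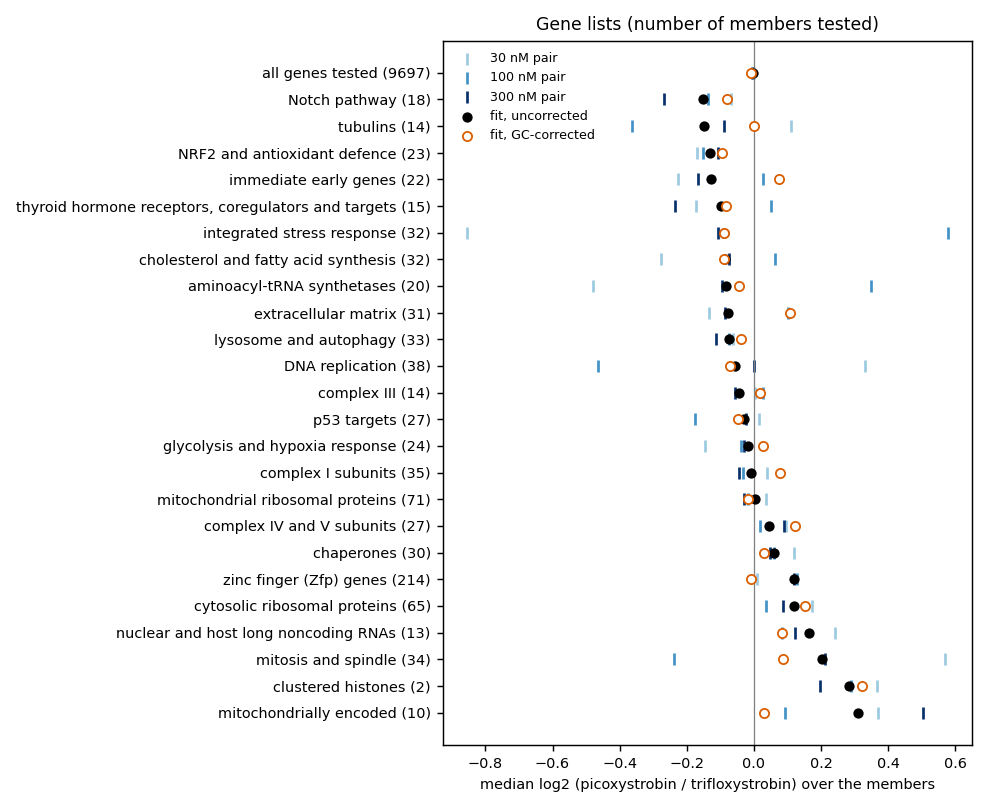
Median log2 ratio of picoxystrobin over trifloxystrobin (x axis) over the tested members of each gene list (y axis, number of members in parentheses), with black dots for the uncorrected fit, open circles for the GC-corrected fit and ticks for the 3 matched pairs. The list medians of the fit lie between -0.15 and 0.31, whereas the pairs of the integrated stress response are spread from -0.85 to 0.58.

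Genes of the integrated stress response differed strongly in single pairs and in opposite directions. Of 32 members 1 was called (Cebpb, -0.61, and -0.20 after the correction for GC content), against 6.76% of all genes. The median log2 difference was -0.09, with and without the correction. At 30 nM 31 of the 32 members were lower with picoxystrobin (median -0.85), whereas at 100 nM 29 were higher (median 0.58). At 300 and 1000 nM the medians were -0.11 and 0.01. Relative to the mean of the 8 libraries, the trifloxystrobin library at 30 nM had the highest level of these genes (0.52 on the log2 scale) and the trifloxystrobin library at 100 nM the lowest (-0.58). The picoxystrobin libraries went from -0.36 at 30 nM to 0.12 at 1000 nM. The transcription factor Atf4 itself had 525, 619 and 635 CPM with picoxystrobin and 810.5, 389 and 784 CPM with trifloxystrobin, a difference of -0.09 with a 95% interval from -0.52 to 0.34. Chac1 and Trib3, targets of Atf4 that were chosen here after their values were seen, spread more. Chac1 had 18.1, 28.4 and 31.6 CPM against 44.5, 2.84 and 31.2 CPM, and Trib3 had 16.0, 30.2 and 32.3 CPM against 58, 7.92 and 30.4 CPM. The 95% interval of the difference was from -0.94 to 1.72 for Chac1 and from -1.09 to 1.09 for Trib3, so that the matched libraries could not place these genes in either direction.

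Aminoacyl-tRNA synthetase genes, several of which are also targets of Atf4, followed the same libraries. Their median was -0.48 at 30 nM and 0.35 at 100 nM. Of the 20, 1 was called (Vars, -0.42, and -0.12 after the correction for GC content), against 6.76% of all genes. Genes of the cell cycle took the opposite course. DNA replication genes had a median log2 ratio of 0.33 at 30 nM, -0.47 at 100 nM, 0.00 at 300 nM and 0.58 at 1000 nM, and 0 of 38 were called by edgeR's test (2 higher and 4 lower at an unadjusted p under 0.05). Mitosis and spindle genes had medians of 0.57, -0.24, 0.21 and 0.60, and 0 of 34 were called (4 higher and 0 lower at an unadjusted p under 0.05). The proliferation marker Mki67 had 1009.6, 842 and 843 CPM with picoxystrobin and 682, 997 and 852 CPM with trifloxystrobin, and cyclin B1 (Ccnb1) had 139, 116 and 139 CPM against 79.5, 118 and 95.8 CPM. The trifloxystrobin library at 30 nM was thus the lowest of the 6 for both genes, and the one at 100 nM was close to the highest for Mki67. In bulk samples, fewer cells in a phase of the cycle and less RNA per cell cannot be told apart. Tubulin genes, with 0 of 14 called (0 higher and 3 lower at an unadjusted p under 0.05), had medians of 0.11, -0.36, -0.09 and 0.44 by pair. Over all genes, 6.76% were called, and 15.4% were higher and 16.2% lower at an unadjusted p under 0.05 in edgeR's test.

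**Figure D5:**
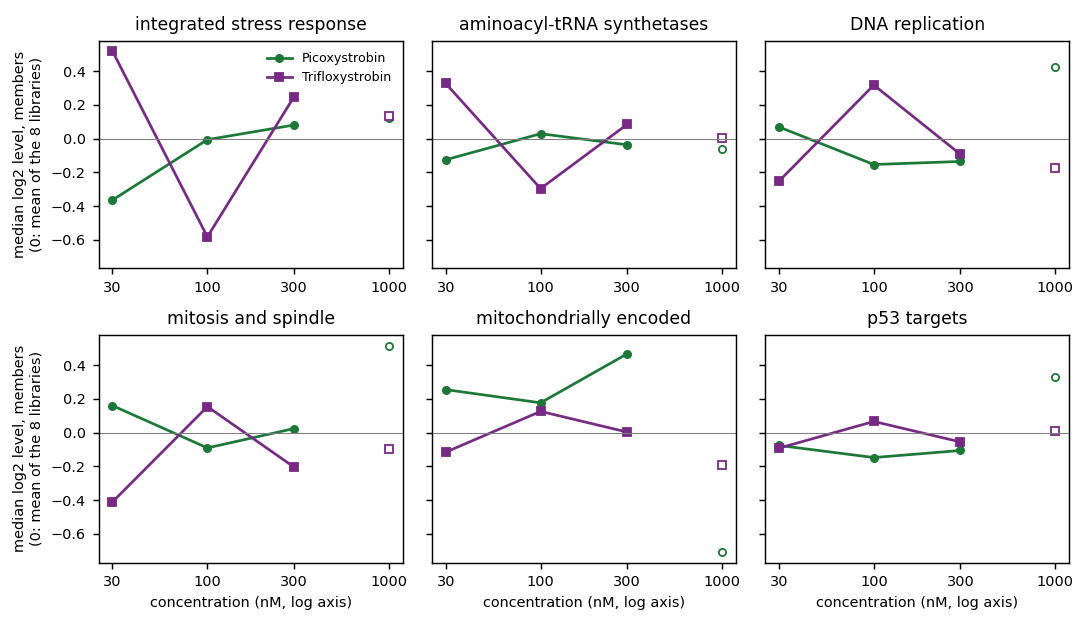
Median log2 level over the members of 6 gene lists in each library, relative to the mean of the 8 libraries (y axis), against concentration (x axis, nM, log scale), with circles for picoxystrobin, squares for trifloxystrobin and open symbols for 1000 nM, not in the fit. The trifloxystrobin libraries at 30 and 100 nM lie at opposite ends for the integrated stress response (0.52 and -0.58), and the picoxystrobin library at 1000 nM is the lowest of the 8 for mitochondrially encoded genes (-0.71) and the highest for p53 targets (0.33).

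The list of p53, the DNA damage responsive transcription factor, held its targets and its own gene, Trp53. Among its 27 members 0 were called higher and 5 lower with picoxystrobin, against 2.92% and 3.85% of all genes. The genes called were the cell cycle inhibitor Cdkn1a (-0.59), the apoptosis gene Bbc3 (-0.59), Phlda3 (-0.39), Ptp4a3 (-0.51) and Trp53 itself (-0.39), the last 3 named after their values were seen. Cdkn1a had 29.6, 26.4 and 29.3 CPM with picoxystrobin and 41.5, 44.2 and 42.5 CPM with trifloxystrobin, and the difference was -0.42 (SE 0.10) after the correction. For the other 4 the corrected differences were -0.21 (Bbc3), -0.06 (Phlda3), -0.25 (Ptp4a3) and -0.25 (Trp53). Cdkn1a was steady across the lower concentrations in both compounds, but at 1000 nM it was at 99.6 CPM with picoxystrobin against 52.8 CPM with trifloxystrobin. The median of the whole list was -0.03 in the fit and 0.30 at 1000 nM, where 22 of 27 members were higher. Ccng1, the most abundant target, had 523, 485 and 653 CPM against 382, 532 and 446 CPM, and 832 against 531 CPM at 1000 nM.

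Genes of lipid synthesis, antioxidant defence, lysosomes and Notch signalling were called only in the lower direction in these lists, against 3.85% of all genes. Their list medians, in this order, were -0.09, -0.13, -0.08 and -0.15, and -0.09, -0.09, -0.04 and -0.08 after the correction for GC content. At an unadjusted p under 0.05 in edgeR's corrected test, 3, 3, 6 and 2 members were lower and 0, 0, 1 and 2 higher. The shares over all genes were 7.09% lower and 8.49% higher. In cholesterol and fatty acid synthesis 5 of 32 were called lower, among them the mevalonate kinase gene Mvk (-0.47) and the transcription factor gene Srebf1 (-0.42). The list median was -0.28 at 30 nM and 0.06 at 100 nM. Mvk had 21.3, 21.2 and 20.1 CPM with picoxystrobin and 31.1, 24.9 and 31.3 CPM with trifloxystrobin, and 37.6 against 27.8 CPM at 1000 nM. In the NRF2 list 2 of 23 were called, Gstm1 (-0.38) and G6pdx (-0.36), and the median was -0.13 (-0.17, -0.15 and -0.11 in the 3 pairs, and 0.03 at 1000 nM). Without either library at 30 nM the median of this list was -0.024. In the lysosome and autophagy list 3 of 33 were called, including the proteases Ctsd (-0.45) and Ctsa (-0.34) and the glucosidase Gaa (-0.47). Ctsd had 147, 134 and 144 CPM against 200.3, 175 and 206 CPM. Of 18 genes of the Notch pathway 3 were called, Notch1, Numbl (-0.58) and Maml1 (-0.40). Numbl, an adaptor related to the Notch inhibitor Numb, had 27.8, 27.5 and 25.5 CPM against 43.7, 39.7 and 37.9 CPM, with -0.42 (SE 0.09) after the correction. At 1000 nM it was at 48.2 against 49 CPM. The members Ctsa and Maml1 were named after their values were seen.

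For zinc finger genes, which encode DNA-binding proteins, the list median depended on the correction for GC content. Of 214 Zfp genes 8 were called higher and 11 lower (3.74% and 5.14%), near the 2.92% and 3.85% of all genes. Their median log2 difference was 0.12 with a median GC content of 43.7%. After the correction the median was -0.01. Zfp386 had 67.4, 74.8 and 92.5 CPM with picoxystrobin and 52.1, 49.2 and 55.2 CPM with trifloxystrobin (0.58, SE 0.10, GC content 40.5%). Zfp142 had 47.3, 45.8 and 38.2 CPM against 61.7, 64.3 and 60.7 CPM (-0.51, SE 0.09, GC content 53.7%). The chaperone list held genes on both sides, the cochaperone Dnaja1 (0.51) called higher and Bag3 (-0.46) and the heat shock factor Hsf1 (-0.58) called lower, of 30 tested. In extracellular matrix genes the median changed sign with the correction, from -0.08 to 0.11, and 1 of 31 was called (Hspg2, -0.40). Immediate early genes behaved likewise (-0.13 and 0.07, with Ctgf called higher and Fosl1, -0.51, called lower of 22). These few calls stand against 2.92% higher and 3.85% lower of all genes and do not set these lists apart.

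The remaining lists held few calls, against 2.92% higher and 3.85% lower of all genes. Of 24 genes of glycolysis and the hypoxia response 1 was called higher (the mitophagy receptor gene Bnip3l, 0.51) and 1 lower (Aldoa, -0.35). Bnip3l had 98.6, 103 and 112 CPM with picoxystrobin and 72.2, 76.4 and 71.3 CPM with trifloxystrobin, and 61.8 against 64.5 CPM at 1000 nM. Among 13 long noncoding RNAs, the snoRNA hosts Snhg1 (0.43) and Snhg6 (0.50) were called higher and Neat1 (-0.52), which builds nuclear paraspeckles, was called lower. Neat1 had 38.6, 35.4 and 37.2 CPM against 69.6, 54.6 and 39.6 CPM, so the libraries at 300 nM differed little. Of the clustered histones 2 of 70 were expressed enough to be tested, and the one beside Hist1h1c, Hist2h2be, differed by 0.03 (95% interval from -0.23 to 0.28).

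Of 15 genes of thyroid hormone receptors, coregulators and targets, 0 were called higher and 1 lower, against 2.92% and 3.85% of all genes. At an unadjusted p under 0.05 in edgeR's test 5 were lower and 0 higher, against 16.2% and 15.4%. The list median was -0.10, or -0.08 after the correction for GC content, and -0.17, 0.05, -0.24 and 0.04 at 30, 100, 300 and 1000 nM. Thra, the gene of the receptor overexpressed in these cells, had 63.4, 57.6 and 51.2 CPM with picoxystrobin and 71.3, 60.3 and 66.5 CPM with trifloxystrobin. Whether reads of the transgene were counted with it was not tested. Its difference was -0.20 with a 95% interval from -0.41 to 0.01, and 0.08 (-0.09 to 0.25) after the correction. The receptor target Klf9 differed by 0.00 (-0.27 to 0.27), with 27.8, 27.5 and 29.0 CPM against 31.3, 23.0 and 30.9 CPM. Hr, another target, was below the minimum average and was not tested. Hprt, used as a reference gene in the study, had 190.0, 209 and 278 CPM against 179, 177 and 163 CPM (0.37, 95% interval from 0.10 to 0.64, adjusted p 0.0805 in edgeR's quasi-likelihood test (Benjamini-Hochberg)), and 0.14 (-0.08 to 0.37) after the correction.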

How the data were processed

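RNA-seq counts were available for 16 libraries, of which 8 were used, 6 in the fit and 2 at 1000 nM as a check. Cells were grown in 6-well plates, RNA was extracted with a NucleoSpin kit and libraries were made from total RNA with the Lexogen SENSE kit and sequenced from a single end (NextSeq500). The authors counted reads per gene with htseq-count and deposited raw counts, without normalization or pooling. The submitters' processing notes list Bowtie2 2.3.2.2 and mm10. The annotation and the use of strand are not given in the sources used here.

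Libraries were grouped by their labels. Counts were normalized by TMM and tested, two-sided, with edgeR 4.0.16 (glmQLFit and glmQLFTest, R 4.3.3), with compound and concentration as terms, over the 9697 genes with an average over 10 CPM, and a gene was called at a Benjamini-Hochberg adjusted p under 0.05. The SE of a difference was computed from its F statistic. In the GC-corrected fit, the deviation of each library from the gene mean was fitted by a natural spline (4 degrees of freedom) on the GC content of the longest transcript, known for 9663 of these genes, and entered as an offset. Log2 ratios per pair used a prior count of 2. Of 54658 symbols, 54092 were found in GENCODE M21 (GRCm38, the same assembly as mm10). With 13044534 to 18188099 reads per library, counting error was of the order of the spread between libraries near 10 CPM (common dispersion 0.00889) and smaller above. DESeq2 1.42.0, RLE factors, other filters, a robust fit, other corrections, the block left out, 4 pairs and each library left out were alternatives. The tests were tried on simulated counts. Summaries used Python 3.11.15 with pandas 2.3.3, and matplotlib 3.10.9 drew the figures.

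The libraries compared and the gene lists were chosen with earlier results of these data known. Named genes were the 10 highest and 10 lowest among those called with 1 sign in the 3 pairs, the 5 of each sign with the lowest p after the correction, up to 2 members of each sign with the lowest p and the most abundant member of each list, the measured members of complex III, and Thra, Klf9, Hr and Hprt. Results that need items withheld for evaluation are not reported here.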

Additional observations from a re-analysis of the deposited data

Results flagged for a closer look

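In 6 gene lists of 10 or more members, at least 75% of the members moved one way in 1 pair of libraries and at least 75% the other way in another pair. These differences between concentrations were not tested, since each concentration holds 1 library of each compound. The median log2 ratio of picoxystrobin over trifloxystrobin was 0.37 at 30 nM, 0.50 at 300 nM and -0.40 at 1000 nM for mitochondrially encoded genes. Between 30 and 100 nM it went from -0.85 to 0.58 for the integrated stress response, from -0.48 to 0.35 for aminoacyl-tRNA synthetases, from 0.33 to -0.47 for DNA replication, and from 0.57 to -0.24 for mitosis and spindle genes. Between 100 and 1000 nM it went from -0.36 to 0.44 for tubulins, from -0.47 to 0.58 for DNA replication and from -0.24 to 0.60 for mitosis and spindle genes. The lists compared between 30 and 100 nM share the trifloxystrobin libraries at 30 and 100 nM, which stood at opposite ends of the stress response levels (0.52 and -0.58).

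The correlation of the ratio with transcript GC content was -0.713 at 300 nM and 0.281 at 1000 nM, a difference that was not tested.

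For 2 of the 58 groups of 4 libraries examined, 1 library stood apart from the other 3 by Dixon's criterion, which chance meets in about 1 in 20 groups. In both it was picoxystrobin at 1000 nM, the highest in the level of p53 targets (0.33 on the log2 scale relative to the mean of the 8 libraries) and of lysosome and autophagy genes (0.20).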

How the results depend on the processing

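The call counts depended on the processing. Without the filter on low counts edgeR called 839 genes higher and 804 lower, with a robust fit 562 and 635, and with the 1000 nM pair added (4 matched pairs) 0 and 0. RLE factors, DESeq2 and edgeR's own filter gave counts within 1.5 times of 283 and 373, and 655, 500 and 638 of the 656 genes were shared. Leaving out 1 library, which with the block drops its pair from the comparison, gave between 0 and 1087 genes higher and between 0 and 1042 lower. The 0 was for either library at 300 nM. With the correction for GC content, 0 genes were called with RLE factors, a robust fit, edgeR's filter, 20 GC bins, transcript length added, the block left out or 4 pairs (between 880 and 1974 at an unadjusted p under 0.05). DESeq2 called 41 higher and 15 lower, the test without a filter 452 and 163, and leaving out 1 library gave between 0 and 226 higher and between 0 and 157 lower. The causes were not tested.

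Concentration was kept as a replicate block because it defines the pairs, but the libraries of a concentration did not deviate together (r = -0.406, -0.197 and 0.126 at 30, 100 and 300 nM across genes). Without the replicate block 713 genes were called higher and 799 lower, and 650 of the 656 were among them.

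For list medians, the correction for GC content gave 0.019 for complex III, 0.078 for complex I, 0.12 for complexes IV and V, 0.029 for mitochondrially encoded genes, -0.094 for the NRF2 list, -0.0098 for Zfp genes, 0.11 for extracellular matrix, 0.073 for immediate early genes and -0.039 for lysosome and autophagy. With transcript length added, medians were -0.067 for mitochondrially encoded genes, -0.058 for mitochondrial ribosomal proteins, 0.0094 for Zfp genes, 0.0087 for chaperones, 0.15 for extracellular matrix, 0.061 for immediate early genes, -0.032 for lysosome and autophagy and 0.051 for long noncoding RNAs. With 4 pairs they were -0.074 for the NRF2 list, 0.038 for Zfp genes, 0.012 for chaperones, -0.024 for lysosome and autophagy, 0.043 for long noncoding RNAs, 0.11 for DNA replication, 0.054 for tubulins, 0.065 for p53 targets and 0.12 for mitochondrially encoded genes. Leaving out 1 library gave medians from -0.011 to 0.036 for complex I, -0.13 to 0.015 for p53 targets, -0.14 to -0.0029 for glycolysis and hypoxia, -0.15 to -0.024 for the NRF2 list, 0.045 to 0.11 for chaperones and -0.11 to -0.083 for lysosome and autophagy, and from -0.58 to 0.20 for the integrated stress response, -0.25 to 0.18 for DNA replication, -0.26 to 0.15 for aminoacyl-tRNA synthetases, 0.031 to 0.39 for mitosis and spindle, -0.17 to 0.036 for cholesterol and fatty acid synthesis and -0.25 to -0.013 for tubulins. The r with GC content was -0.457, -0.531, -0.727 and 0.318 at 30, 100, 300 and 1000 nM over the 4516 genes over 50 CPM.

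No named gene that was called with or without an alternative changed its sign with it, and 195 values of named genes changed sign with neither value called. Genes near 10 CPM are also limited by counting error.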
